A study of Mus musculus with 6 samples.

Results

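The 10 genes described here are the Notch receptors *Notch1*, *Notch2*, *Notch3* and *Notch4*, the ligands *Jag1*, *Jag2* and *Dll1*, the nuclear partner *Rbpj*, and the targets *Hes1* and *Hey1*. They were taken by symbol from 55367 gene symbols measured in each library, and all 10 were found in every library. RNA-seq covered cells isolated from kidney with the lectin DBA, which binds collecting duct epithelium, and each of the 3 groups had 2 libraries. The WT mice received saline. The ADPKD mice were *Pkd1*-/- and received saline, and the ADPKD+MMPP mice were *Pkd1*-/- and received MMPP, a melanin-like nanoparticle that carries manganese and polyethylene glycol. All libraries carry the label Day115. The knockout was induced with tamoxifen in male *Pkd1* fl/fl;*Cre/Esr1*+ mice, so that deletion depends on where and how well this Cre acted, and the promoter that drives it is not given in the sources used here. Nothing in the labels says how many mice went into a library, so the spread between the 2 libraries of a group may be partly technical.

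Notch receptors sit in the plasma membrane and are activated by Jagged or Delta ligands on a neighbouring cell. Ligand binding exposes the receptor to ADAM10 and then to gamma-secretase, and the released intracellular domain enters the nucleus, where it joins RBPJ and Mastermind proteins and switches on genes such as *Hes1* and *Hey1*. In the kidney this pathway is known for directing the choice between principal and intercalated cells in the collecting duct and for forming the proximal nephron. Blood vessels use it as well, with *Notch4* and *Dll4* typical of endothelium and *Notch3* of vascular smooth muscle.

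The deposited measure was FPKM, in which a read number is scaled to gene length and library depth, so that levels of different genes in 1 library can be ordered. Depth, found from the steps of single reads in low values, was 30.5 to 33.0 M reads for the WT and ADPKD libraries but only 10.9 and 11.8 M reads for the treated ones. Among low values, 33.7% to 35.7% were odd read numbers in WT and ADPKD, but 6.66% and 6.79% in ADPKD+MMPP. The treated libraries thus stood apart in the make-up of their read numbers, and what lies behind this and the treatment cannot be told apart. The comparison of ADPKD with WT takes no mean from those libraries, only part of the shared spread. *Pkd1* itself had 17.7 and 17.2 FPKM in WT, 7.64 and 8.91 in ADPKD, and 4.34 and 3.99 in ADPKD+MMPP. Of 9 principal cell markers 8 passed the filter on low values, and the 9 summed to 2096 and 2796 FPKM in WT, while 10 endothelial markers summed to 1124 and 959 FPKM and 5 podocyte markers to 900 and 1231 FPKM. The label of tubular epithelium thus covers libraries that also held clear endothelial and podocyte RNA.

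The stretches before the start sites of *Notch3*, *Jag1* and *Rbpj* are shown because the study concerns CREB, which binds CRE sequences, and because RBPJ is the factor that all 4 receptors act through. They hold the 250 bases upstream of the RefSeq start on GRCm38.p6, 5′ to 3′ on the strand of the gene, at chr17:32166891-32167140 (minus strand), chr2:137116521-137116770 (minus strand) and chr5:53590096-53590345 (plus strand). Capitals mark the CRE core TGACG in *Notch3*, this core and the Hes and Hey binding sequence CACGCG in *Jag1*, and the RBPJ core TGGGAA in *Rbpj*, each on either strand.
*Notch3*: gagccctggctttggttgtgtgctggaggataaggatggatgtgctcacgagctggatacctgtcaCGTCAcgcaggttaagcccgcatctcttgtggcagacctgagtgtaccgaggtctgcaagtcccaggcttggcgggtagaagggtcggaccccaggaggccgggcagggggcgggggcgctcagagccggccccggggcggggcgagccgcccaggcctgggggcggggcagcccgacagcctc
*Jag1*: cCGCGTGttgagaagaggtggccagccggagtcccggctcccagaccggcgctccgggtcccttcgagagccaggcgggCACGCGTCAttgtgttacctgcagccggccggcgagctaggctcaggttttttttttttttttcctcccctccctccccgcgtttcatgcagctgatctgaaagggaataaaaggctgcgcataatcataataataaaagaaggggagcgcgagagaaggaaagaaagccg
*Rbpj*: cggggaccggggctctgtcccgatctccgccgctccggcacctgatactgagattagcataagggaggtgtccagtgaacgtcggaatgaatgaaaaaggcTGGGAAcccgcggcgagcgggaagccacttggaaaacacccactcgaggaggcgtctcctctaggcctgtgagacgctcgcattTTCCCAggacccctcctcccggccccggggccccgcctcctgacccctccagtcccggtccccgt
In *Jag1* the CRE core overlaps 1 of the CACGCG matches. Windows were found for 8 of the 10 genes (*Hes1* and *Hey1* were not matched). No other of these genes held TGACG in its window, none held the full CRE TGACGTCA, and *Notch1*, *Notch4* and *Jag2* held no match to any of the 4 sequences. *Notch2* held CACGCG in its window, and so did *Dll1* in 1 of its windows. Among all 32851 RefSeq windows of the same length, TGACG was present in 17.8%, TGGGAA in 21.6%, CACGCG in 7.62% and TGACGTCA in 1.55%. A match describes the letters only.

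In ADPKD against WT, 6 of the 10 Notch genes passed the thresholds of a fold change of at least 1.5 and a P under 0.05 in limma. *Notch1*, *Notch3*, *Notch4*, *Jag2* and *Hes1* fell and *Notch2* rose, while *Jag1*, *Dll1*, *Rbpj* and *Hey1* did not pass. Over all 14862 genes tested, 26.7% were called, 12.5% lower and 14.2% higher. When the adjusted p (Benjamini-Hochberg, limma) was used for the call, the count of Notch genes was again 6, and 22.5% of all genes passed. The WT and ADPKD libraries did not overlap for any of the 10 genes, which held for 67% of all genes tested. The median log2 fold change of the 10 genes was -0.59, beside 0.03 for all genes tested. The count of 5 lower and 1 higher was the same under all 3 other scalings of the libraries and with only the 4 WT and ADPKD libraries in the fit. All fold changes on the log2 scale are of FPKM + 1, so that changes of weakly expressed genes come out too small.

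**Figure D1:**
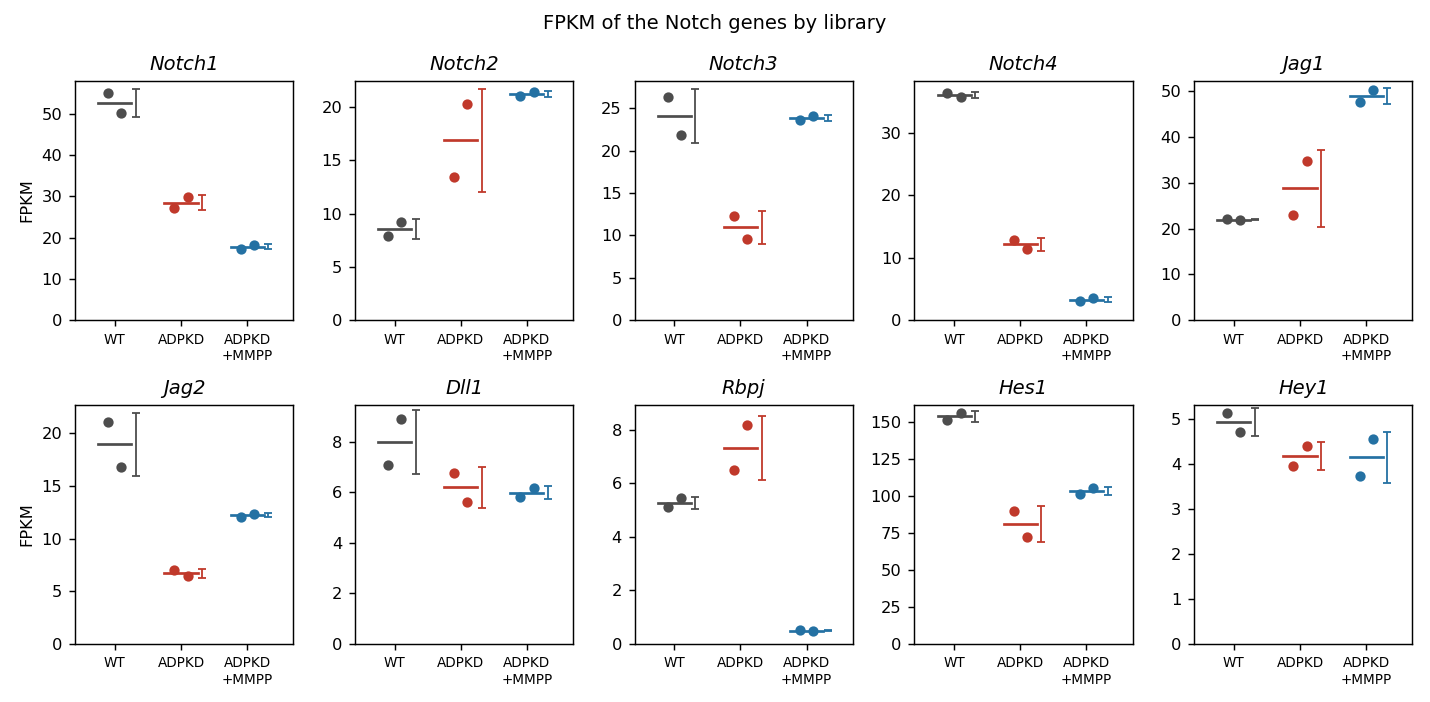
FPKM of the 10 Notch genes in each library, with 1 panel for each gene and the y axis starting at 0. Points are libraries, horizontal lines are group means and vertical bars are the SD (n = 2). *Notch1*, *Notch3*, *Notch4*, *Jag2* and *Hes1* lie below WT in ADPKD, with no overlap, and *Notch2* lies above it.

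*Notch1*, the founding receptor of the family, lies on chromosome 2 from 26457903 to 26516663 and had 55.0 and 50.1 FPKM in WT and 27.2 and 29.7 FPKM in ADPKD. Both ADPKD libraries were well below both WT libraries. Its mean FPKM was 1.85-fold lower, with a log2 fold change of -0.86 (standard error 0.12, adjusted p = 0.0073 from limma). *Notch3*, the receptor of vascular smooth muscle, lies on chromosome 17 from 32120820 to 32166852 and had 26.4 and 21.8 FPKM in WT and 12.3 and 9.55 FPKM in ADPKD. The groups did not overlap, and the mean was 2.20-fold lower with a log2 fold change of -1.08 (standard error 0.17, adjusted p = 0.00936 from limma). The antisense transcript *Gm17276*, which overlaps *Notch3*, stayed at 0.563 FPKM or less in every library, and *0610009E02Rik*, on the strand opposite *Notch1*, at 0.914 FPKM or less. Whether strand was used in counting is not given in the sources used here, so reads of such pairs cannot be told apart. Positions are those of GRCm38.

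*Notch4*, a receptor typical of endothelium, lies on chromosome 17 from 34564268 to 34588503 and had 36.5 and 35.7 FPKM in WT and 12.9 and 11.4 FPKM in ADPKD. Of the 10 genes it had the lowest fold change, with a mean 2.97-fold lower and a log2 fold change of -1.50 (standard error 0.13, adjusted p = 0.00331 from limma). *Notch2*, the receptor needed for the proximal nephron, lies on chromosome 3 from 98013527 to 98150361 and moved the other way. It had 7.88 and 9.23 FPKM in WT and 13.4 and 20.3 FPKM in ADPKD, and its mean was 1.97-fold higher with a log2 fold change of 0.88 (standard error 0.21, adjusted p = 0.0301 from limma). The ADPKD libraries of *Notch2* differed from each other by more than the WT libraries did, and the change was still called without replicate 1 (1.16) and without replicate 2 (0.60).

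Since 3 receptors fell and 1 rose, the makeup of the receptor transcripts shifted. The 4 receptors together summed to 126 and 117 FPKM in WT and to 65.8 and 71.0 FPKM in ADPKD. *Notch2* made up 6.27% and 7.90% of this sum in WT and 20.4% and 28.6% in ADPKD. *Notch4* made up 29.0% and 30.6% in WT and 19.5% and 16.1% in ADPKD. By contrast, the share of *Notch1* went from 43.8% and 42.9% to 41.3% and 41.9%. These shares are a description and were not tested. In the order of levels *Notch2* was the lowest receptor in WT, where its libraries overlapped with those of *Dll1*, and in ADPKD it stood above *Notch3* and *Notch4*, whose libraries overlapped with each other.

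**Figure D2:**
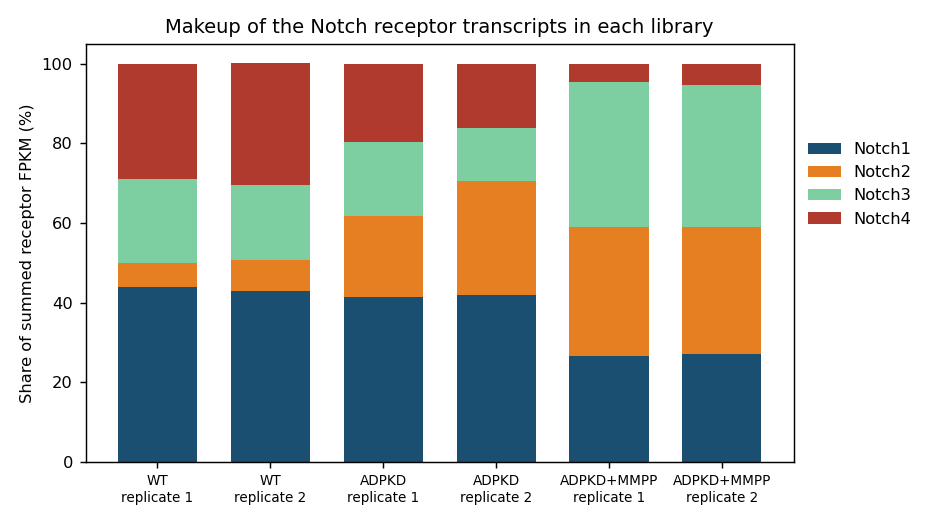
Share of each receptor in the summed FPKM of *Notch1* to *Notch4*, in percent, with 1 stacked bar for each library. *Notch2* takes 6.27% and 7.90% in WT and 20.4% and 28.6% in ADPKD, and *Notch4* takes 4.60% and 5.24% after MMPP. All shares are of FPKM as deposited. The log2 fold change of *Notch4* after MMPP was -1.63 as deposited and 0.02 when centred by gene structure (described below).

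Of the ligands 1 was called lower and 2 were not called. *Jag2*, a Jagged ligand (chromosome 12, 112907819 to 112929776), had 21.1 and 16.9 FPKM in WT and 6.99 and 6.40 FPKM in ADPKD. Its mean was 2.83-fold lower, with a log2 fold change of -1.37 (standard error 0.15, adjusted p = 0.00419 from limma). *Jag1*, the other Jagged ligand, lies on chromosome 2 from 137081456 to 137116644 and had 22.1 and 21.8 FPKM in WT and 22.9 and 34.7 FPKM in ADPKD. The first ADPKD library was close to WT and the second was higher, and the log2 fold change of 0.35 was not called (95% interval -0.16 to 0.85, adjusted p = 0.256 from limma). Without ADPKD replicate 1 it was 0.64 and was called, and without ADPKD replicate 2 it was 0.06. The ratio of *Jag1* to *Jag2* FPKM was 1.05 and 1.30 in the WT libraries and 3.27 and 5.42 in the ADPKD libraries. *Dll1*, a Delta ligand (chromosome 17, 15367354 to 15376872), had 7.10 and 8.91 FPKM in WT and 6.79 and 5.61 FPKM in ADPKD. Its log2 fold change of -0.32 was not called (95% interval -0.71 to 0.07, adjusted p = 0.184 from limma).

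*Hes1*, a repressor of the bHLH class and a direct target of the pathway, was the most abundant of the 10 genes in every library. It lies on chromosome 16 from 30064384 to 30067796 and had 151 and 157 FPKM in WT and 89.7 and 72.4 FPKM in ADPKD. Both ADPKD libraries were lower, the mean was 1.90-fold lower, and the log2 fold change was -0.93 (standard error 0.14, adjusted p = 0.0092 from limma). *Hey1*, a related bHLH target (chromosome 3, 8663359 to 8667256), had 5.14 and 4.70 FPKM in WT and 3.94 and 4.39 FPKM in ADPKD. The groups were separate but close, and the log2 fold change of -0.20 was not called (95% interval -0.53 to 0.14, adjusted p = 0.33 from limma).

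*Rbpj*, the DNA-binding partner of the receptors, lies on chromosome 5 from 53466152 to 53657362. It had 5.12 and 5.43 FPKM in WT and 6.48 and 8.18 FPKM in ADPKD, and its log2 fold change of 0.40 had a P of 0.0309 in limma (adjusted p = 0.0884) but stayed under the fold threshold. Processed pseudogenes of *Rbpj* can share reads with it. *Rbpj-ps3* had between 0.127 and 0.779 FPKM over the libraries, and *Rbpj-ps1* was listed at 0 in all 6.

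Markers of other cell types moved in the same comparison. All 10 endothelial markers were measured above the filter, none was at 0 in any library, and 9 were called lower in ADPKD and 1, *Plvap*, higher. Their median log2 fold change was -1.04, with a range of -2.16 to 0.92, and their summed level was 959 to 1124 FPKM in WT and 635 to 650 FPKM in ADPKD. Of 10 intercalated cell markers 10 were lower (median -2.31), with sums of 331 to 339 FPKM in WT and 32.1 to 88.4 FPKM in ADPKD, and of 5 podocyte markers 5 were lower (median -2.73). Of 10 dissociation and immediate-early genes 7 were lower (median -1.07). For mural cells and fibroblasts, 9 of 10 markers passed the filter, 3 were higher and 3 lower, with *Pdgfrb* at -1.12 and *Myh11* at -1.53 among the lower ones and *Col1a1* at 4.62 and *Dcn* at 3.57 among the higher ones. Of 7 macrophage and leukocyte markers that passed 6 were higher (median 1.57), with *Cd3e* listed at 0 in a library. Of 14 proximal tubule markers 4 were higher and 1 lower, and of 7 markers of the thick limb and distal convoluted tubule 1 was higher and 3 lower. Principal cell markers were called for 1 gene of 8, *Aqp4*, which was higher (adjusted p = 0.0565 from limma), and *Avpr2* was listed at 0 in a library. Only 1 of the 8 had a fold change above 0, and their median was -0.38. The sums over all 9 were 2096 and 2796 FPKM in WT and 2502 and 957 FPKM in ADPKD. In such bulk samples, fewer cells of a type and less RNA per cell cannot be told apart, and the part of these cell types in the Notch changes was not tested.

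**Figure D3:**
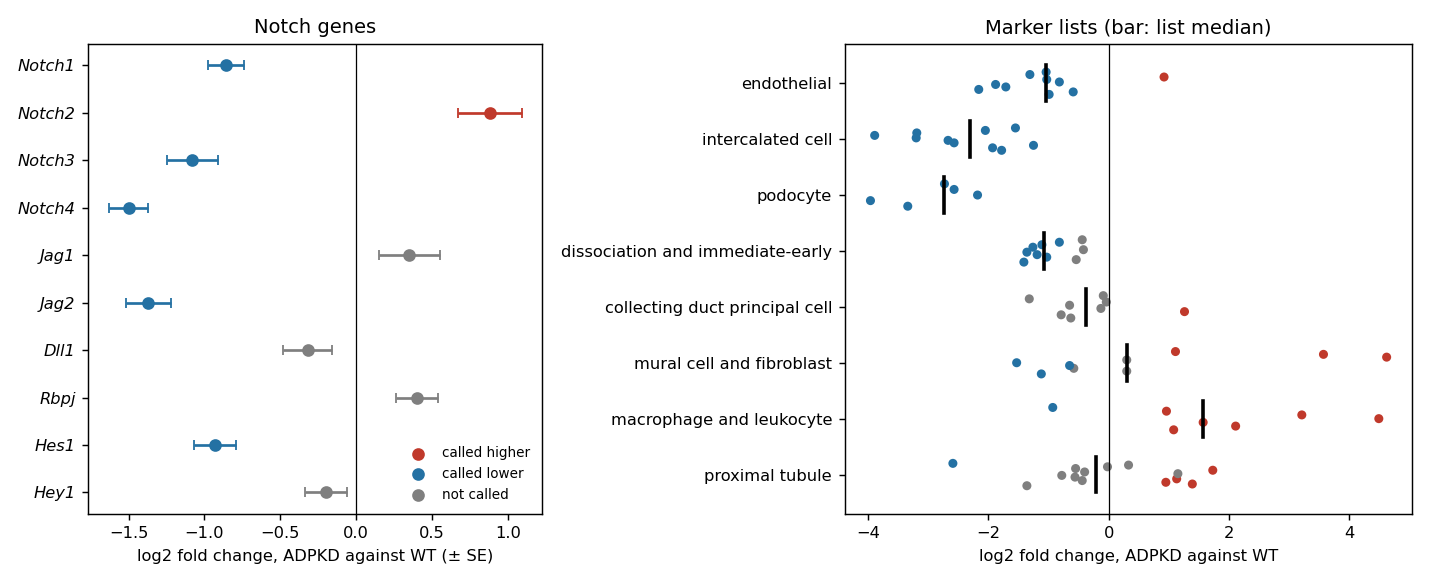
Log2 fold changes in ADPKD against WT, on the left for the 10 Notch genes with their standard error and on the right for the genes of 8 marker lists, where each point is a gene and the bar is the list median. Colours show the call in limma. The 5 Notch genes called lower lie between -1.50 and -0.86, and 9 of 10 endothelial and 10 of 10 intercalated cell markers are called lower as well.

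Other genes of the pathway were taken from 9 lists with 61 genes, of which 55 passed the filter. In ADPKD against WT 6 were called higher and 12 lower, and their median log2 fold change was -0.21. The remaining ligands were lower in each of the 3 genes that passed. *Dll4* had 143 and 113 FPKM in WT and 70.3 and 59.9 in ADPKD (log2 fold change -0.96, adjusted p = 0.0117 from limma). *Dlk1*, a non-canonical ligand, had a log2 fold change of -2.56, and *Dlk2*, its relative, had -1.35. *Dlk1* had 9.32 and 7.46 FPKM in WT and 1.46 and 0.0221 in ADPKD. *Dlk2* had 1.84 and 3.73 FPKM in WT and 0.572 and 0.325 in ADPKD. Both reached the filter only with their WT libraries, so their lower values in ADPKD were partly set by the filter. Among the 10 genes for proteases that cut the receptors and their subunits, 1 was called lower and 1 higher in limma. *Psen2*, a catalytic subunit of gamma-secretase, fell from 12.1 and 12.6 FPKM to 4.01 and 5.51 (log2 fold change -1.23, adjusted p = 0.03 from limma).

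Of the enzymes that add sugars to the receptors, *Poglut1* was called lower, at -0.59, and the Fringe genes *Lfng*, *Mfng* and *Rfng* were not called. Of the genes for ligand endocytosis, *Mib2* was lower, at -1.16, and *Neurl1a* was higher, at 0.88 and at most 2.09 FPKM. *Neurl1a* had 0.611 and 0.736 FPKM in WT and reached the filter only in the ADPKD libraries, so its higher value there was partly set by the filter. *Numb*, an inhibitor of the receptors, fell from 35.9 and 34.9 FPKM in WT to 15.5 and 14.3 in ADPKD (log2 fold change -1.19, adjusted p = 0.0053 from limma). *Dtx4*, an E3 ligase of the Deltex family, rose from 1.04 and 1.53 FPKM to 6.01 and 7.65 (log2 fold change 1.78, adjusted p = 0.00351 from limma).

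In the nucleus, the Mastermind coactivators *Maml3* and *Maml2* were lower, at -1.64 and -0.98, and no coactivator was called higher. The corepressors *Tle2*, *Tle1* and *Tle4* were lower, the first at -1.80 and the second at -0.78. Of the other Hes and Hey genes 3 of 7 passed the filter, *Hes6*, *Hey2* and *Heyl*, and none was called. *Sox9*, a transcription factor reported as a Notch target and active in injured tubules, had 2.90 and 7.40 FPKM in WT and 34.7 and 64.6 in ADPKD. Both ADPKD libraries were far above WT, with a log2 fold change of 3.08 (standard error 0.43, adjusted p = 0.00722 from limma). *Myc* was higher at 1.32. The genes reported as targets thus differed in direction, with *Hes1* lower, *Sox9* and *Myc* higher, and *Hey1*, *Ccnd1*, *Cdkn1a* and *Elf5* not called.

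**Figure D4:**
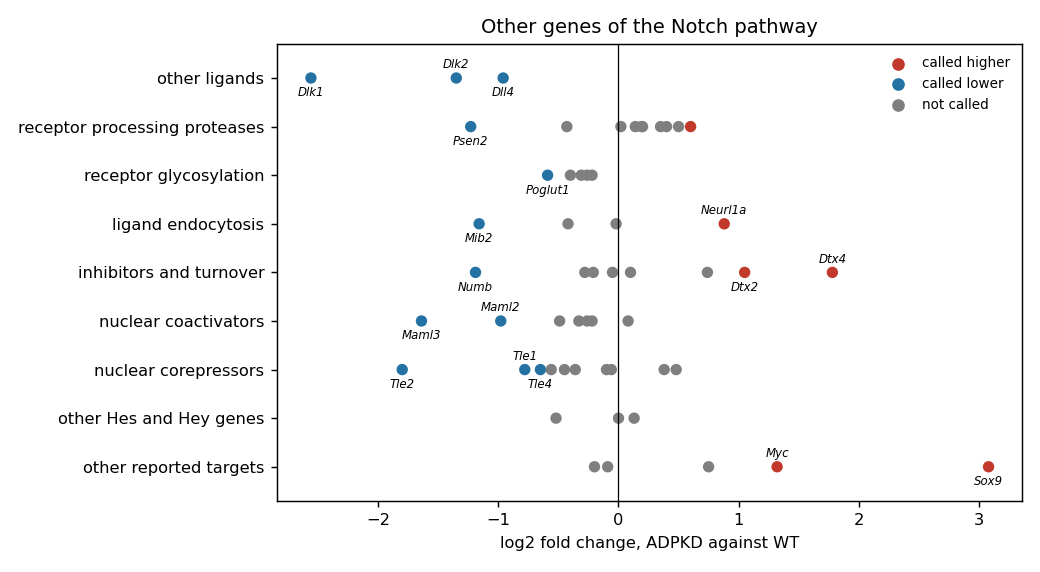
Log2 fold changes in ADPKD against WT of the 55 other pathway genes that passed the filter, by list. Each point is a gene, colours show the call in limma, and most called genes are named. The 12 genes called lower include the 3 ligands that passed, of which *Dlk1* and *Dlk2* did so only with their WT libraries. *Sox9* is the highest at 3.08.

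In ADPKD+MMPP against ADPKD, 6 of the 10 Notch genes were called, 3 higher and 3 lower, in a comparison where 70.9% of all genes tested were called, 27.9% higher and 43% lower. With the adjusted p 70.3% of all genes were called and the same count of 6 Notch genes. The libraries did not overlap for 8 of the 10, all but *Dll1* and *Hey1*, and for 87.8% of all genes. *Notch3*, *Jag1* and *Jag2* were higher and *Notch1*, *Notch4* and *Rbpj* were lower. The median log2 fold change was 0.16 for the 10 genes and -0.36 for all genes tested, and the changes below are to be read against the latter. Of all calls 39.3% were higher as deposited, 54% under quantile normalization (2 Notch genes higher and 3 lower) and 58% when centred by gene structure (2 higher and 3 lower). With median ratio scaling the share was 46.5% (5 Notch genes higher and 2 lower), and on a common sum of FPKM it was 32.1% (1 higher and 3 lower). The genes called in either direction were 66.9% of all under quantile normalization and 58.3% when centred. They were 71.7% with median ratio scaling and 73.4% on a common sum. Both comparisons share the ADPKD libraries.

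The values after MMPP were also set against gene structure. For each gene the share of its exon bases found in a single annotated transcript (GENCODE) was taken, and the 12375 tested protein-coding genes had a median of 53.3%. *Notch1*, *Notch2* and *Notch3* had 87.4%, 85.0% and 90.3%, and *Notch4*, with 12 annotated transcripts, had 21.3%. The ligands *Jag1*, *Jag2* and *Dll1* had 78.6%, 58.8% and 49.2%, *Rbpj* had 56.6%, and *Hes1* and *Hey1* had 71.4% and 75.2%. Each change of a Notch gene in ADPKD+MMPP against ADPKD is therefore given as deposited and also centred. Centred means that the median of genes with a like share (20 bins) was taken off in every library. Marker counts, marker sums and receptor shares after MMPP are given as deposited only.

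*Rbpj* was lower in both forms. It had 6.48 and 8.18 FPKM in ADPKD and 0.505 and 0.474 FPKM in ADPKD+MMPP, from 76 and 66 reads. The treated libraries were 15.0-fold lower in the mean, with a log2 fold change of -2.48 (standard error 0.14, adjusted p = 5e-05 from limma). The centred change was -1.82. *Notch1* had 17.3 and 18.2 FPKM after MMPP, below the 27.2 and 29.7 of ADPKD, with a log2 fold change of -0.65 (standard error 0.12, adjusted p = 0.00385 from limma). Centred, it was at -1.76. With libraries scaled by the median ratio *Notch1* was at -0.35 and was not called. *Jag2* was higher in both forms, with 12.1 and 12.3 FPKM after MMPP against 6.99 and 6.40 in ADPKD. Its log2 fold change was 0.78 (standard error 0.15, adjusted p = 0.00367 from limma). Centred, it was at 1.13, and on a common sum of FPKM it was 0.54 and was not called.

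For 3 other genes the call was lost when centred. *Notch4* had 2.98 and 3.52 FPKM after MMPP against 12.9 and 11.4 in ADPKD, and its log2 fold change of -1.63 (standard error 0.13, adjusted p = 0.000139 from limma) became 0.02 when centred. *Notch3* had 23.6 and 24.1 FPKM after MMPP, close to the 26.4 and 21.8 of WT, and its log2 fold change of 1.07 (standard error 0.17, adjusted p = 0.00182 from limma) became 0.02 when centred. *Jag1* had 47.7 and 50.2 FPKM, above both other groups, and its log2 fold change of 0.78 (standard error 0.20, adjusted p = 0.0149 from limma) became -0.04. Without ADPKD replicate 1, and also without ADPKD+MMPP replicate 2, the change of *Jag1* was not called, at 0.48 and 0.74, nor was it on a common sum (0.48) or under quantile normalization (0.56).

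The remaining genes were not called as deposited. *Notch2* had 21.0 and 21.4 FPKM after MMPP, with a log2 fold change of 0.34 (95% interval -0.18 to 0.86, adjusted p = 0.181 from limma), and centred it was -0.77 and was called lower. Without ADPKD replicate 2 it was 0.62 and was called higher. *Hes1* had 102 and 106 FPKM, between the levels of ADPKD and WT. Its log2 fold change of 0.36 (standard error 0.14, adjusted p = 0.0616 from limma) missed the fold threshold and was 0.15 when centred, and under median ratio scaling it was 0.67 and was called. *Dll1* had 5.82 and 6.17 FPKM, with -0.04 as deposited (95% interval -0.43 to 0.35) and 0.62, called higher, when centred. *Hey1* had 3.74 and 4.55 FPKM, which lay on both sides of the ADPKD values, with -0.01 as deposited (95% interval -0.35 to 0.33) and -0.43, not called, when centred.

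**Figure D5:**
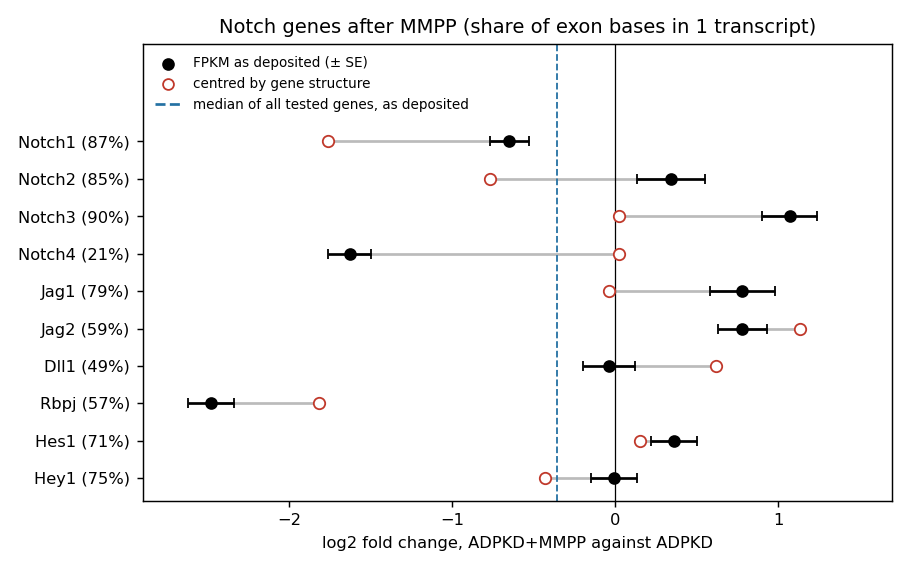
Log2 fold changes of the 10 Notch genes in ADPKD+MMPP against ADPKD, as deposited with the standard error (filled points) and after centring by gene structure (open points). Percentages are the share of exon bases in exactly 1 annotated transcript, and the dashed line is the median of all tested genes at -0.36. *Notch4* goes from -1.63 to 0.02 and *Notch3* from 1.07 to 0.02, while *Rbpj* stays below and *Jag2* above 0.

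Beside these values, 11 of 14 proximal tubule markers were called higher after MMPP. The 14 summed to 1520 to 1689 FPKM in ADPKD and 10038 to 10490 in ADPKD+MMPP. Most of this sum was *Gpx3*, with means of 1287 FPKM in ADPKD and 8555 FPKM in ADPKD+MMPP. Of 10 intercalated cell markers 8 were higher (259 to 267 FPKM in sum), and of 10 endothelial markers 6 were lower (370 to 398 FPKM in sum). Dissociation and immediate-early genes were higher for 6 of 10 and lower for 3 (median 1.35), and their sums went from 4805 and 6425 FPKM to 11930 and 12084 FPKM. Principal cell markers were higher for 4 and lower for 2 of 8, with sums of 957 to 2502 FPKM in ADPKD and 5437 to 5458 FPKM after MMPP. Mural cell and fibroblast markers were higher for 3 and lower for 5 of 9, with sums of 175 to 190 and 212 to 214 FPKM. Macrophage and leukocyte markers were higher for 3 and lower for 4 of 7, with sums of 381 to 452 and 838 to 869 FPKM. Most of these sums was *Lyz2* and *C1qa*, with means of 206 and 128 FPKM in ADPKD and 566 and 256 FPKM after MMPP. Podocyte markers were lower for 3 of 5, and those of the thick limb and distal convoluted tubule were higher for 2 and lower for 2 of 7. The part of these cells in the Notch changes was not tested. Among the other pathway genes 10 were called higher and 30 lower of 55, where 27.9% of all genes were higher and 43% lower. Their median was -0.82, beside -0.36 for all genes tested. After centring 34 of the 55 were called, 15 higher and 19 lower, where 58.3% of the 12375 genes in that fit were called. Of the calls as deposited, 5 of the 10 higher and 17 of the 30 lower were the same after centring. Under quantile normalization 16 were higher and 23 lower, where 66.9% of all genes were called. *Numb* and the corepressor *Spen*, with shares of exon bases in 1 transcript of only 5.97% and 14.2%, were at -3.43 and -3.11 as deposited and -1.32 and -1.16 when centred. *Furin*, a protease that cuts the receptor, was lower at -3.14 and still at -2.48 when centred. *Itch*, a ligase that turns over Notch, was at -2.54 and -1.43, and *Maml1* at -2.53 and -0.59. *Kat2b*, a histone acetyltransferase, was higher at 1.51 and 1.31, and *Neurl1b* at 1.21 and 0.79. *Myc* went from 75.5 and 91.5 FPKM in ADPKD to 0.873 and 1.35 after MMPP, with -5.33 as deposited and -3.39 when centred. *Hey2* was higher at 0.79 as deposited and at -0.25 when centred, and *Dll4* was lower at -0.71 and -1.82.

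Against WT, the treated libraries differed for 6 of the 10 Notch genes, 2 higher and 4 lower, where 73.9% of all genes were called, 30.1% higher and 43.8% lower. By the adjusted p the count was also 6, with 73.4% of all genes, and the libraries did not overlap for 9 of the 10, all but *Notch3*, and for 91.9% of all genes. Of all calls 40.8% were higher as deposited, 52.9% under quantile normalization, 57.2% when centred and 32.5% on a common sum. On the common sum 9 Notch genes were called, 2 higher and 7 lower, with *Dll1* (-0.77), *Hes1* (-0.97) and *Hey1* (-0.61) added. On that scale 75.9% of all genes were called, and the median of all genes was -0.80. *Notch2* and *Jag1* were higher, at 1.22 and 1.12, and *Notch1*, *Notch4*, *Jag2* and *Rbpj* were lower, at -1.51, -3.13, -0.59 and -2.07. After centring 3 of these 4 kept their call, all but *Jag2*, and neither of the higher genes did, with 0.08 for *Notch2* and 0.30 for *Jag1*. In the centred fit 6 Notch genes were called, all lower, where 62.6% of the 12375 genes were called. The log2 fold change of *Notch3* against WT was -0.01 as deposited (95% interval -0.42 to 0.41) and -1.18, called lower, when centred, so that its level near WT depended on the form of the values. *Hes1* was at -0.57 against WT (adjusted p = 0.0118 from limma), short of the fold threshold, and at -0.79, called lower, when centred. *Hey1* was at -0.21, not called, and at -0.66, called lower, when centred. Without WT replicate 1 *Jag2* was at -0.43 and without ADPKD+MMPP replicate 1 at -0.57, neither of which was called. Nor was *Jag2* called under median ratio scaling (-0.35) or quantile normalization (-0.48). *Hes1* was called lower under quantile normalization (-0.99), without WT replicate 1 (-0.59) and without ADPKD+MMPP replicate 2 (-0.60).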

How the data were processed

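Per the labels and methods, the authors aligned reads to GRCm38/mm10 with HISAT2 2.1.0, counted them on genes with featureCounts 1.6.0 and deposited FPKM for each of 6 libraries. The annotation release and the way FPKM was made are not given in the sources used here. Of 55367 symbols, 53186 matched 1 gene of GENCODE vM21, the source of positions and transcripts. Multiplied by exon length, low FPKM fell on steps of single reads (98.5% to 99.1% whole within 0.05 reads), which gave the depth. In every group the pair of replicates was further apart than read sampling gives (mean chi-square per gene 4.14 to 82.0).

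Because FPKM are not counts, limma 3.58.1 (R 4.3.3) was fitted to log2(FPKM + 1) of all 6 libraries at once, with no covariate, for the 14862 genes that reached FPKM 1 in 2 libraries or more. A call needed a fold change of at least 1.5 and an unadjusted P under 0.05. Adjusted p is Benjamini-Hochberg over all genes tested. Intervals are 95% from the same fit, and with 2 libraries per group they rest on the spread shared by all groups. Alternatives covered the pseudocount, filter, scaling, gene structure, trend, groups in the fit, thresholds, a replicate block and leaving out each library. The fit was tested on simulated data. The members, lists and alternatives were chosen with earlier results of these data known. All 10 members are named, and for each other pathway list up to 2 called genes with separate groups and the largest changes per comparison (further pathway genes named were chosen after their values were seen). For members called in ADPKD against WT the 3 genes of the most similar pattern are named. Some genes that these rules name are not reported here.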

Additional observations from a re-analysis of the deposited data

How the results depend on the processing

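In ADPKD against WT, no Notch gene changed direction under any alternative run, and the 6 genes kept their calls at every setting (with *Jag1* added without ADPKD replicate 1, at 0.64) but a fold change of at least 2, which left *Notch3*, *Notch4* and *Jag2* (3 genes, and 11 other pathway genes). At that threshold 13.1% of all genes were called. With FPKM of at least 1 required in all 6 libraries *Rbpj* dropped out, and the median of the rest was -0.86, beside 0.05 for all genes. Under this filter 9 other pathway genes were called, beside 23.5% of all genes. Leaving out each library gave a median of -0.63 to -0.52. In ADPKD+MMPP against ADPKD the median of the Notch genes was 0.34 with that filter, beside 0.05 for all genes in that fit. It was -0.01 beside 0.15 centred by gene structure, and -0.12 beside -0.73 on a common sum. Under median ratio scaling it was 0.44 beside -0.15, and under quantile normalization 0.41 beside 0.10. At a fold change of at least 2 *Notch3* (1.07), *Notch4* (-1.63) and *Rbpj* (-2.48) stayed called. The share of all genes at that threshold is not given here, and at 1.5 it was 70.9%. The filter left 24 other pathway genes. Under that filter 68.7% of all genes were called. Direction turned when centred for *Notch2* (-0.77), *Notch4* (0.02), *Jag1* (-0.04) and *Dll1* (0.62), under median ratio scaling for *Dll1* (0.23) and *Hey1* (0.24), and under quantile normalization for *Dll1* (0.45) and *Hey1* (0.58). Leaving out each library gave a median of 0.07 to 0.23, and ranges of -0.15 to 0.08 for *Dll1* and -0.13 to 0.10 for *Hey1*. Without ADPKD replicate 2 *Hey1* was at 0.05. In ADPKD+MMPP against WT the median was -0.73 centred, beside 0.17 for all genes, and -0.87 on a common sum, beside -0.80. It was -0.23 under median ratio scaling, beside -0.18, and -0.29 under quantile normalization, beside 0.07. The filter left 26 other pathway genes, where 70.8% of all genes were called. Direction turned for *Dll1* when centred (0.29) and under quantile normalization (0.07), for *Notch3* under median ratio scaling (0.23) and for *Hey1* under quantile normalization (0.34). Leaving out each library gave a median of -0.49 to -0.40, and -0.14 to 0.12 for *Notch3*, which was 0.01 without ADPKD+MMPP replicate 1. The cause of these shifts was not tested.

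The replicate numbers do not pair the samples, since deviations from the group means correlated with r = 0.129, -0.00796 and 0.0137 between groups. With the replicate number as a block 6 Notch genes were called in each comparison, and the block changed none of their calls. Depth was lowest in ADPKD+MMPP, where *Rbpj* rests on 76 and 66 reads.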

Other observations

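The genes whose pattern over the 6 libraries was most like a Notch gene, by the root mean square difference of log2(FPKM + 1) centred on the WT mean, are given as a description. For *Notch2* they were *Rplp0*, *S100a10* and *Metap1*, with differences of 0.0637, 0.0744 and 0.0761. For *Notch4* they were *Ltbp1*, *Gimap1* and *Tmem204* (0.0828, 0.113 and 0.118), and *Tmem204* had a mean of 51.2 FPKM in WT, 17.4 FPKM in ADPKD and 4.79 FPKM after MMPP. *Prkd1*, *Syde1* and *Hdc* were nearest to *Notch3* (0.0919, 0.105 and 0.106), and *Cyp2d12*, *Tbc1d2b* and *Klf12* to *Jag2* (0.0764, 0.0883 and 0.119). *Cyp2d12* was weakly expressed, with means of 1.57 FPKM (WT), 0.0701 FPKM (ADPKD) and 0.729 FPKM (ADPKD+MMPP). The added 1 narrows its change, so its FPKM pattern is less like that of *Jag2* than the difference says. *Fermt2*, *Rgs2* and *Mto1* were nearest to *Hes1* (0.0655, 0.0727 and 0.0757), with *Fermt2* at means of 101 FPKM (WT), 52.0 FPKM (ADPKD) and 65.4 FPKM (ADPKD+MMPP).

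Pathway genes under the filter were *Dll3*, *Dtx1*, *Hes2*, *Hes3*, *Hes5* and *Hes7*. *Hes2* was listed at 0 in both WT libraries and had 0.0688 and 0.0473 FPKM in ADPKD and 0.899 and 0.973 in ADPKD+MMPP. *Hes5* had at most 0.249 FPKM in any library.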
